A study of Mus musculus with 62 samples.

Results

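Gastrocnemius muscle of mice that lack ChREBP in muscle was compared with that of floxed littermates in normoxia, to ask which transcripts depend on ChREBP in muscle without metabolic stress. The comparison held 8 libraries of 1 mouse each, chosen by their labels from the 62 libraries of the study: 4 ChMKO mice (N_KO_370, N_KO_374, N_KO_375 and N_KO_380) and 4 F/F mice (N_WTc397, N_WTc401, N_WTc368 and N_WTc369). F/F mice carry loxP sites around exon 8 of Mlxipl, the gene of ChREBP, without Cre, and ChMKO mice carry the floxed gene with Cre driven by the muscle creatine kinase promoter (MCK-Cre, written Mck-cre in the labels), so both groups share the loxP sites. By the study's methods the mice were male and 8 to 10 weeks old unless stated otherwise, and each group held separate animals. Neither group received hypoxia or the high-fructose diet. Loss of exon 8 shifts the reading frame and removes the DNA-binding end of the protein, but RNA from the remaining exons can still be made and counted. MCK-Cre acts in skeletal muscle fibers and in heart, and the vessels, nerves, connective tissue and blood cells in a piece of gastrocnemius keep the gene. In such bulk tissue, fewer cells of a type and less RNA per cell cannot be told apart.

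ChREBP and its relative MondoA (Mlxip) are sensors of glucose phosphates. Each pairs with Mlx and binds a carbohydrate response element, which consists of a pair of E-box-like motifs set a short distance apart. In liver and fat this drives glycolytic, fructose-handling and lipogenic genes. Txnip and Arrdc4, arrestin-family proteins that restrain glucose uptake, are direct targets of both sensors. Mlxipl has an upstream first exon, used for a shorter isoform, whose own promoter answers to ChREBP.

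These promoters are shown because the genes are often used to read the activity of ChREBP and MondoA. The Txnip window holds a pair of E-box-like motifs, and the other windows hold a single E-box, which is not a whole carbohydrate response element. Each run is the 250 bases before a transcript start in RefSeq GRCm38.p6, read 5′ to 3′ on the strand of the gene, with the motif in capitals. Txnip lies at chr3:96557707-96557956 on the plus strand, and the capitals mark the pair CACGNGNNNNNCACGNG, 85 to 69 bases before the start. Arrdc4 lies at chr7:68749239-68749488 on the minus strand, and the capitals mark the E-box CACGTG, 193 to 188 bases before the start. The upstream start of Mlxipl lies at chr5:135089640-135089889 on the plus strand, with CACGTG 98 to 93 bases before it.
Txnip: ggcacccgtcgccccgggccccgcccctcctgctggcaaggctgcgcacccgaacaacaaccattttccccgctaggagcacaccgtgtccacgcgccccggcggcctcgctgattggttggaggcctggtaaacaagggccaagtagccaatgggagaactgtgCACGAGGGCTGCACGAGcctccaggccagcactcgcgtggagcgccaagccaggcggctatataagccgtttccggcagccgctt
Arrdc4: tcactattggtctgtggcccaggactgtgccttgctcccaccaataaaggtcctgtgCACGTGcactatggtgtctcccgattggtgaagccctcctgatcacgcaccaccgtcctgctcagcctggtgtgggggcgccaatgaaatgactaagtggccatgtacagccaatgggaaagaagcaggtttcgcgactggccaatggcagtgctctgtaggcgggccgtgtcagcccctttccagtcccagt
Mlxipl, upstream start: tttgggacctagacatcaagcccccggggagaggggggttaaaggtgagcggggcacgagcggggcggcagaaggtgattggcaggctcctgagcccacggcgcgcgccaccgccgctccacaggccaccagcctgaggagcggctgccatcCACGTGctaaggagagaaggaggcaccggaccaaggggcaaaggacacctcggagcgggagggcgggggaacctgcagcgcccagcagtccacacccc
The same window before the downstream Mlxipl start (chr5:135106641-135106890) holds no CACGTG. Searched on both strands, CACGTG stood in 1978 of 32851 such windows (6.02%), and the pair, which can overlap an E-box, in 15 (0.0457%). Of the 27 genes listed here as ChREBP targets, 21 had a promoter in this set, and CACGTG stood before Arrdc4, Elovl5, Fgf21 and Khk and the pair before Txnip. A match is a run of letters and no measure of binding, and the FPKM values below do not separate the Mlxipl starts.

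The unit is FPKM, fragments scaled by gene length and library size, and 10846 genes that averaged 0.5 FPKM or more over the 8 libraries were tested, of 21959 entries. Reads recovered from the FPKM values and gene lengths summed to 14473169 to 18981598 per library. Fiber genes were high in each (Ckm 2702 to 4328 FPKM, Acta1 15093 to 25018 FPKM). Y-linked genes were found in every mouse, summing to 60.9 FPKM in mouse N_WTc397, 55.6 FPKM in mouse N_WTc401 and 12.3 to 16.2 FPKM in the rest. F/F mice N_WTc397 and N_WTc401, called the divergent pair here, stood apart from the other 6 mice, and F/F mice N_WTc368 and N_WTc369 are called the other F/F pair. Across genes the divergent pair correlated with each other at 0.994 and with the other mice at 0.936 to 0.964, while the other mice correlated among themselves at 0.970 to 0.993. The rank correlation between a gene's deviation from its mean and the share of G and C in its transcript (GC content) was -0.45 in mouse N_WTc397 and -0.49 in mouse N_WTc401. In the other normoxic mice it ranged from 0.30 to 0.52. Of the 24 libraries in the table, 12 had a negative value: these, 2 F/F mice of the hypoxia group, and all 8 libraries of the high-fructose groups. The labels and methods name no batch, and the study reports that it saw no obvious batch effects and corrected for none. With genes split into 5 bins by GC content, the median of the divergent pair minus the other F/F pair went, from the lowest bin to the highest, from 0.27 to -0.29 on the log2 scale, and that of ChMKO minus all F/F mice from -0.18 to 0.14. Relative to the other F/F pair alone the latter went from -0.05 to -0.02. The main results are therefore given against all 4 F/F mice and against the other F/F pair alone, and values per mouse stand in the order N_WTc397, N_WTc401, N_WTc368 and N_WTc369 for F/F mice and N_KO_370, N_KO_374, N_KO_375 and N_KO_380 for ChMKO mice.

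**Figure D1:**
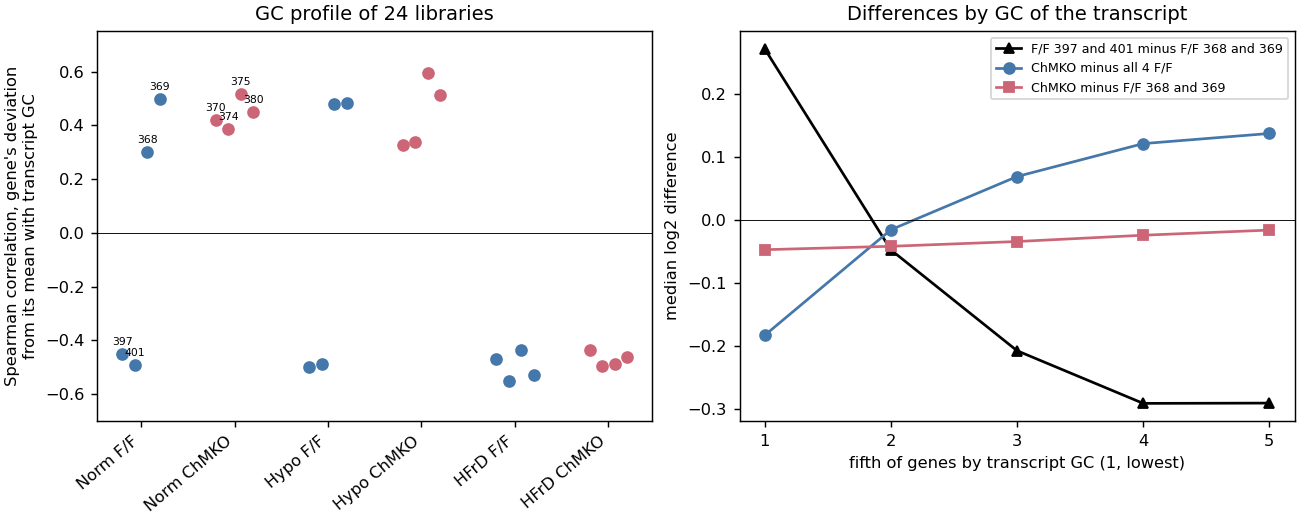
Left, rank correlation of gene deviations with transcript GC content in each of 24 libraries, by group (digits are the mouse numbers of the normoxic ones). The divergent pair lies at -0.45 and -0.49, below the other normoxic mice at 0.30 to 0.52. Right, median log2 difference in each of 5 bins of genes by GC. The difference of ChMKO from all F/F mice runs from -0.18 to 0.14, and that from the other F/F pair from -0.05 to -0.02.

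Mlxipl, encoding ChREBP, fell in ChMKO muscle and was the 1 gene of 10846 with an adjusted p under 0.05 (0.00922% of the genes tested). The gene (GRCm39, chr5:135118744-135167236, plus strand) was at 7.76, 10.01, 8.88 and 7.86 FPKM in F/F mice and at 3.26, 3.15, 3.51 and 3.28 FPKM in ChMKO mice. The groups did not overlap, the highest ChMKO mouse lay far below the lowest F/F mouse, and the divergent pair lay at both ends of the F/F range. The F/F mean was 8.63 ± 1.05 FPKM and the ChMKO mean 3.30 ± 0.152 FPKM (SD, n = 4 each), so 38.2% of the level remained. The log2 fold change on the log2(FPKM + 1) scale was -1.16 (SE 0.0919, limma adjusted p = 0.00655). Compared with the other F/F pair it was -1.12 (adjusted p = 0.0270). In a fit of all 24 libraries with the GC profile as a term it was -1.13 (adjusted p = 3.70e-07). This term is the sign of the GC correlation of each library. Within a group that sign differs only among normoxic and among hypoxic F/F mice, so the term rests on hypoxic mice as well. Leaving out mouse N_WTc368, N_KO_370, N_KO_374, N_KO_375 or N_KO_380 raised the adjusted p to between 0.0503 and 0.0693, with log2 fold changes of -1.14 to -1.18.

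The remaining 38.2% in normoxia can be set beside the other gastrocnemius groups of both genotypes. In hypoxia (simulating 5500 m) ChMKO mice kept 34.4% of the F/F level, 2.82 ± 0.352 against 8.21 ± 0.370 FPKM (SD, n = 4 each). On the high-fructose diet they kept 47.5%, 4.40 ± 0.102 against 9.26 ± 1.13 FPKM (SD, n = 4 each). In an untreated chow cohort, normalized by the authors in another table, they kept 63.2%, 15.7 ± 2.53 against 24.9 ± 4.10 FPKM (SD, n = 5 each). None of these 4 pairs of groups overlapped. The genotype difference in hypoxia minus that in normoxia was -0.11 (SE 0.118, unadjusted p = 0.342). That on the diet minus that in normoxia was 0.24 (SE 0.118, unadjusted p = 0.0565). This last value depended on the processing, with 0.31 at a pseudocount of 0.1 (unadjusted p = 0.0372), 0.30 after rescaling (unadjusted p = 0.0262) and 0.36 with voom (unadjusted p = 0.0180). Without the divergent pair it was 0.20 (unadjusted p = 0.113), and with the GC profile as a term 0.21 (unadjusted p = 0.0997). Leaving out single normoxic mice gave 0.17 to 0.28, with unadjusted p from 0.0302 to 0.147. Every high-fructose library had a negative GC correlation, as no normoxic ChMKO library did, and the study describes this diet as a long-term regimen. Diet, time on it, age and GC profile cannot be told apart in the diet value. Over all genes the interaction with hypoxia was called for 0 of 10749 genes by limma (249 at an unadjusted p under 0.05) and the interaction with diet for 0 of 10732 (484 at an unadjusted p under 0.05). Voom on recovered reads also called 0 of each. The unadjusted counts depended on single mice. That for hypoxia became 803 without the divergent pair, 319 without this pair and the 2 hypoxic F/F mice of negative GC correlation, and 159 without mouse N_KO_380. That for diet became 145 without the divergent pair, 180 without mouse N_WTc397, 229 without mouse N_WTc401, 1010 without mouse N_WTc368, 1934 without mouse N_WTc369 and 308 without mouse N_KO_380. No gene was called in any of these fits.

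**Figure D2:**
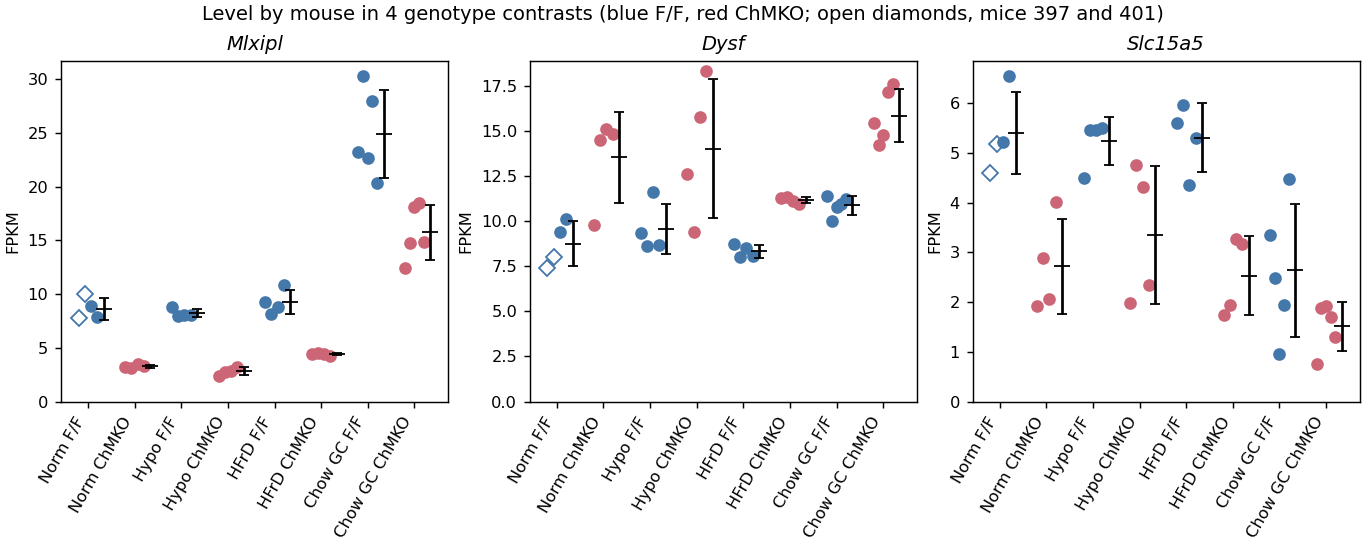
FPKM of Mlxipl, Dysf and Slc15a5 in each mouse of 4 genotype contrasts in gastrocnemius, with mean and SD beside the points (n = 4 or, on chow, 5 per group). Mlxipl lay below every F/F mouse in all ChMKO groups, and the open diamonds (the divergent pair) lay within or near the range of the other F/F mice. The chow libraries come from a table normalized separately.

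The factors that share DNA sites with ChREBP did not differ beyond the spread of the groups. Mlxip was at 14.5, 14.5, 17.0 and 13.3 FPKM in F/F mice and at 12.5, 15.7, 18.1 and 13.0 FPKM in ChMKO mice (log2 fold change -0.01, SE 0.127). Mlx was at 4.59, 4.35, 5.47 and 5.67 FPKM in F/F mice and at 5.61, 5.61, 5.47 and 4.49 FPKM in ChMKO mice (log2 fold change 0.07, SE 0.105). Both genes overlapped between genotypes. Of the 10 tested members of the Mlx and Max network (11 listed), 4 were higher and 6 lower (1 and 9 against the other F/F pair), with a median of -0.02 against 0.05 for all genes. Besides Mlxipl, only Mga, which encodes a large repressor of the network, had an unadjusted p under 0.05 (2 of 10 with Mlxipl, beside 11.1% of all genes tested), at 4.92, 5.35, 1.76 and 1.08 against 1.15, 1.49, 1.34 and 1.02 FPKM. Its high values were those of the divergent pair, and against the other F/F pair its log2 fold change was -0.10 (unadjusted p = 0.515).

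Txnip and Arrdc4, the target genes whose promoters are printed above, did not pass the test in either direction. Txnip was at 110.2, 153, 268 and 202 FPKM in F/F mice and at 171, 247, 183 and 196 FPKM in ChMKO mice. The F/F mice spanned the ChMKO range, with mouse N_WTc397 lowest and N_WTc368 highest of all 8. The log2 fold change was 0.18 (SE 0.254, unadjusted p = 0.495), and -0.24 against the other F/F pair (unadjusted p = 0.208). Arrdc4 was at 1.81, 2.11, 2.88 and 4.54 FPKM in F/F mice and at 6.06, 3.08, 3.26 and 3.78 FPKM in ChMKO mice. Mouse N_KO_370 was the highest, the F/F mouse N_WTc369 came next, and the log2 fold change was 0.41 (SE 0.241, unadjusted p = 0.124), and 0.08 against the other F/F pair. In the hypoxia, high-fructose and chow contrasts Txnip differed by 0.13, -0.15 and -0.37 and Arrdc4 by -0.09, 0.06 and 0.01, none with an unadjusted limma p under 0.05. Without the 2 hypoxic F/F mice of negative GC correlation Txnip differed by -0.29 and Arrdc4 by -0.05 in hypoxia.

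Of the 27 listed ChREBP targets 22 were tested, while Pklr, Elovl6, Fgf21, Gckr and Slc2a2 stayed under the 0.5 FPKM minimum. In ChMKO muscle 17 were higher and 5 lower, with a median of 0.20. An unadjusted p under 0.05 was found for Gpd1 and Thrsp (2 of 22, beside 11.1% of all genes tested), and both were higher. Gpd1, the cytosolic glycerol phosphate dehydrogenase, was at 125, 119.8, 159.7 and 192 FPKM in F/F mice and at 219, 201, 191 and 199.7 FPKM in ChMKO mice (log2 fold change 0.46, SE 0.150, unadjusted p = 0.0135). The divergent pair was the lowest, and mouse N_WTc369 lay within the ChMKO range. Khk, the ketohexokinase that starts fructose breakdown, was at 5.02, 4.49, 4.70 and 7.21 FPKM in F/F mice and at 6.15, 6.38, 6.76 and 8.77 FPKM in ChMKO mice (log2 fold change 0.34, unadjusted p = 0.0503). Against the other F/F pair the list split into 12 higher and 10 lower with a median of 0.01, and Gpd1 differed by 0.21 (unadjusted p = 0.0750). No target, Thrsp included, was higher in that fit at an unadjusted p under 0.05. There Acaca, the acetyl-CoA carboxylase of fatty acid synthesis, was lower at an unadjusted p of 0.0381 (log2 fold change -0.25).

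Most glycolytic transcripts had higher mean values in ChMKO mice than in all F/F mice, and none passed the adjusted test. Of 20 enzymes 19 were tested, 16 were higher and 3 lower, and 8 had an unadjusted p under 0.05, all higher (beside 11.1% of all genes tested in either direction). The median was 0.27. Pgk1, phosphoglycerate kinase, was at 422, 443, 481 and 602 FPKM in F/F mice and at 659, 663, 569 and 663 FPKM in ChMKO mice (log2 fold change 0.40, SE 0.128, unadjusted p = 0.0123). Pkm, muscle pyruvate kinase, was at 412, 429, 535 and 647 FPKM in F/F mice and at 688, 645, 634 and 681 FPKM in ChMKO mice (log2 fold change 0.41). In both genes the divergent pair was the lowest of all and mouse N_WTc369 came close to or into the ChMKO range. Relative to the other F/F pair the counts were 11 higher and 8 lower, 0 of 19 had an unadjusted p under 0.05 (beside 2.74% of all genes), the median was 0.05, and Pgk1 differed by 0.24. With the GC profile as a term Pgk1 differed by 0.22. Of 12 tested genes of hexose transport and fructose handling (13 listed), 11 were higher, none had an unadjusted p under 0.05, and the median was 0.17, while 6 were higher and 6 lower against the other F/F pair.

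Genes of glycogen handling included members whose groups did not overlap, which 537 of the 10846 genes tested did (4.95%). All 18 listed genes were tested, 13 were higher and 5 lower, and Pgm1, Stbd1, Phka1 and Pygm had an unadjusted p under 0.05, all higher (4 of 18, beside 11.1% of all genes tested). Compared with the other F/F pair, 10 were higher and 8 lower, 1 of 18 had an unadjusted p under 0.05 (beside 2.74% of all genes), and the median of 0.15 became 0.04. Phka1 was at 228, 222, 193 and 229 FPKM in F/F mice and at 256, 262, 243 and 263 FPKM in ChMKO mice (log2 fold change 0.23, SE 0.0877, unadjusted p = 0.0262). This gene encodes the muscle regulatory subunit of phosphorylase kinase, which switches on glycogen breakdown. Every ChMKO mouse exceeded every F/F mouse, and the divergent pair lay among the other F/F mice. Against the other F/F pair the difference was 0.28 (unadjusted p = 0.0175), with the GC profile as a term 0.33. Pgm1, phosphoglucomutase, was at 473, 499.5, 548 and 581 FPKM in F/F mice and at 637, 619, 622 and 625 FPKM in ChMKO mice, also without overlap (log2 fold change 0.26, 0.15 against the other F/F pair). Pygm, muscle glycogen phosphorylase, did not overlap either, at 2599.9, 2308, 2635 and 2809 against 3312, 2848, 3192 and 2921 FPKM. Stbd1, a starch-binding protein that tethers glycogen, was at 15.2, 21.0, 17.7 and 29.9 FPKM in F/F mice and at 37.3, 32.8, 22.4 and 36.0 FPKM in ChMKO mice, and mouse N_WTc369 passed mouse N_KO_375. In the other gastrocnemius contrasts Phka1 differed by 0.00 in hypoxia (0.15 without its 2 F/F mice of negative GC correlation), 0.16 on the diet and 0.21 on chow.

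All 78 tested subunits of the respiratory chain (94 symbols listed, 79 of them in the table) were higher in ChMKO mice against all F/F mice. Their median was 0.27 and 14 of 78 had an unadjusted p under 0.05, beside 11.1% of all genes tested. Relative to the other F/F pair, 54 were higher and 24 lower, the median was 0.03, and 3 of 78 had an unadjusted p under 0.05 (beside 2.74% of all genes), namely Atp5o, Atp5k and Ndufb9. Atp5k, a small subunit of ATP synthase, was at 43.7, 48.8, 60.3 and 67.3 FPKM in F/F mice and at 79.5, 79.0, 86.2 and 111 FPKM in ChMKO mice (log2 fold change 0.69, SE 0.161, unadjusted p = 0.00219). Ndufb9, a subunit of complex I, was at 15.2, 17.3, 21.0 and 25.6 FPKM in F/F mice and at 28.0, 27.2, 28.9 and 33.8 FPKM in ChMKO mice (log2 fold change 0.58). In both, the divergent pair was lowest, the other F/F pair lay between, and the F/F mice had no overlap with the ChMKO mice. Atp5o was at 1.74, 2.38, 2.22 and 2.53 FPKM in F/F mice and at 3.87, 3.99, 4.02 and 5.57 FPKM in ChMKO mice, without overlap (log2 fold change 0.73, 0.66 against the other F/F pair), but its low level for an ATP synthase subunit is uncertain, since reads may be split with near-identical copies. On the diet these 3 genes differed by -0.17 (Atp5o), -0.04 (Atp5k) and -0.13 (Ndufb9), and on chow by -0.12, -0.15 and -0.08. In hypoxia they differed by 0.39, 0.52 and 0.42, and by 0.10, 0.09 and 0.05 without the 2 hypoxic F/F mice of negative GC correlation.

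The mitochondrial genome did not follow the nuclear subunits. Of its 13 protein-coding genes 5 were higher and 8 lower, with a median of -0.39, and mt-Nd2, mt-Nd4, mt-Nd5 and mt-Nd6 were lower at an unadjusted p under 0.05 (5 of 13 with mt-Atp8, beside 11.1% of all genes tested). mt-Nd5, a complex I subunit, was at 10528, 11860.1, 2561 and 2159 FPKM in F/F mice and at 1583, 1701, 1457 and 1958 FPKM in ChMKO mice (log2 fold change -1.62). The divergent pair was several times above the rest, yet the other F/F pair also lay above all ChMKO mice, with a log2 fold change of -0.50 against them (unadjusted p = 0.00883). With the GC profile as a term it was -0.31. mt-Nd6, encoded on the opposite strand, was at 4458, 5824, 1335 and 1232 FPKM in F/F mice and at 897, 883, 862 and 1139 FPKM in ChMKO mice (log2 fold change -1.44, -0.45 against the other F/F pair). The genes overlap at their ends, and whether counting used strand is not given in the sources used here. Only mt-Atp8 was higher at an unadjusted p under 0.05, at 2.17, 4.91, 5.58 and 1.32 against 9.43, 6.52, 5.10 and 10.2 FPKM, with overlap at mouse N_KO_375 and a reading frame that overlaps mt-Atp6. Compared with the other F/F pair, 12 of the 13 genes were lower, the median was -0.18, and 4 of 13 had an unadjusted p under 0.05 (1 higher and 3 lower, beside 2.74% of all genes).

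Oxidative fuel genes held no member with an adjusted call. Of 27 genes of pyruvate entry and the TCA cycle, 20 were higher and 7 lower against all F/F mice, and 2 were higher and 25 lower against the other F/F pair (medians 0.12 and -0.07). Mpc1, a subunit of the mitochondrial pyruvate carrier, was at 5.63, 4.96, 3.17 and 3.11 FPKM in F/F mice and at 2.90, 2.74, 2.86 and 2.42 FPKM in ChMKO mice (log2 fold change -0.45, SE 0.163, unadjusted p = 0.0215). The groups did not overlap, and against the other F/F pair the difference was -0.15 (unadjusted p = 0.116). Of 31 tested genes of fatty acid uptake and oxidation (32 listed), 20 were higher and 11 lower, which became 5 and 26 against the other F/F pair (medians 0.08 and -0.13). Slc27a1, the fatty acid transporter FATP1, was at 9.83, 8.83, 9.93 and 10.4 FPKM in F/F mice and at 6.69, 8.73, 9.08 and 7.70 FPKM in ChMKO mice. It differed by -0.26 against all F/F mice (unadjusted p = 0.0361) and by -0.31 against the other F/F pair (unadjusted p = 0.0351), with mouse N_KO_375 inside the F/F range. Lpl, lipoprotein lipase, was at 83.5, 79.1, 38.4 and 63.3 FPKM in F/F mice and at 38.9, 53.5, 28.7 and 43.6 FPKM in ChMKO mice. The divergent pair was highest, and the difference of -0.64 became -0.29 against the other F/F pair (unadjusted p = 0.321).

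Lipid transporters split evenly in direction against all F/F mice. Of 43 listed genes 36 were tested, 18 were higher and 18 lower, and 6 of 36 had an unadjusted p under 0.05 (beside 11.1% of all genes tested), all lower, among them Abca8b, Abca1, Slc27a1, Abcd3 and Atp11b. Against the other F/F pair, 9 of 38 tested were higher and 29 lower, and 3 of 38 had an unadjusted p under 0.05 (beside 2.74% of all genes), all lower. Abca1, which exports cholesterol to apolipoproteins, was at 4.80, 5.27, 2.71 and 3.21 FPKM in F/F mice and at 2.40, 2.23, 2.58 and 2.17 FPKM in ChMKO mice (log2 fold change -0.55, SE 0.165, unadjusted p = 0.00932). Abca8b, a related transporter, was at 8.71, 11.4, 6.84 and 6.46 FPKM in F/F mice and at 4.93, 5.26, 6.19 and 4.90 FPKM in ChMKO mice (log2 fold change -0.54). In both the groups did not overlap and the divergent pair was highest, and against the other F/F pair the differences were -0.24 and -0.28 (unadjusted p = 0.0345 and 0.0285). In the hypoxia, high-fructose and chow contrasts Abca1 differed by 0.08, 0.18 and 0.00, and Abca8b by -0.37, -0.03 and -0.18. Without the 2 hypoxic F/F mice of negative GC correlation the hypoxia values were 0.39 and -0.02. Srebf1, the lipogenic transcription factor SREBP1, was at 4.99, 6.69, 8.10 and 8.10 FPKM in F/F mice and at 9.34, 10.02, 11.3 and 8.89 FPKM in ChMKO mice. Its groups did not overlap (log2 fold change 0.47, SE 0.145, unadjusted p = 0.0108, against the other F/F pair 0.25 with an unadjusted p of 0.0405). Of the 18 tested genes of its sterol list (20 listed) 15 were higher and 3 lower, with a median of 0.12, and 13 were higher against the other F/F pair, with a median of 0.06. Sc5d and Stard4, of sterol synthesis and sterol transport, were lower at an unadjusted p under 0.05, with log2 fold changes of -0.21 and -0.23. Relative to the other F/F pair they differed by -0.14 and -0.26 (unadjusted p = 0.200 and 0.0643).

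Slow-fiber transcripts varied between mice far more than between genotypes. Myh7, the slow myosin heavy chain, was at 5.14, 3.16, 0.930 and 12.3 FPKM in F/F mice and at 0.459, 7.90, 0.289 and 11.5 FPKM in ChMKO mice (log2 fold change -0.41, SE 0.854). Mice N_WTc369, N_KO_374 and N_KO_380 were high and N_WTc368, N_KO_370 and N_KO_375 low, with the divergent pair between, so each genotype held both kinds. Tnnt1, slow troponin T, had the same order of mice, at 16.1, 13.3, 8.50 and 49.0 against 5.79, 31.3, 3.12 and 45.0 FPKM. The summed level of the 11 slow-twitch sarcomere genes ranged from 160 to 609 FPKM in F/F mice and from 109 to 439 FPKM in ChMKO mice. Of its 10 tested genes 3 were higher and 7 lower, none had an unadjusted p under 0.05, and all 10 were lower against the other F/F pair, where mouse N_WTc369 held the highest sum.

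Fast-fiber transcripts did not share a single direction. All 15 listed sarcomere genes were tested, 12 were higher and 3 lower, with a median of 0.20 (0.11 against the other F/F pair), and Myl1, Tnni2, Myoz1, Mylpf and Pvalb had an unadjusted p under 0.05, all higher (5 of 15, beside 11.1% of all genes tested). Compared with the other F/F pair only Myl1 of the 15 had one (beside 2.74% of all genes). Myl1, the fast alkali light chain, was at 4473, 4595, 5334 and 4856 FPKM in F/F mice and at 5990.2, 5999.8, 5748 and 5883 FPKM in ChMKO mice (log2 fold change 0.30, SE 0.102, unadjusted p = 0.0174). Tnni2, fast troponin I, was at 2858, 3225, 3671 and 3877 FPKM in F/F mice and at 4002, 4324, 4322 and 4439 FPKM in ChMKO mice (log2 fold change 0.33). Neither overlapped between groups, and against the other F/F pair they differed by 0.21 and 0.18 (unadjusted p = 0.0496 and 0.0894). The fast myosins overlapped: Myh4 (type 2B) was at 10221, 9615, 7853 and 7731 FPKM in F/F mice and at 8520.0, 7754, 8681 and 7952 FPKM in ChMKO mice (log2 fold change -0.10). Myh2 (type 2A) was at 237, 238, 220.0 and 479 FPKM in F/F mice and at 232, 259.9, 203 and 216 FPKM in ChMKO mice, and mouse N_WTc369 stood alone at the top (log2 fold change -0.29). Of the 11 fiber markers 10 were tested, Tnni2 alone had an unadjusted p under 0.05, and the median was -0.10. Against the other F/F pair 3 were higher and 7 lower, none with an unadjusted p under 0.05, and the median was -0.21.

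In calcium handling, 12 of 18 tested genes were higher and 6 lower (19 listed). Jph2, junctophilin of the triad, was at 139, 152, 187 and 164 FPKM in F/F mice and at 183, 194, 215 and 194 FPKM in ChMKO mice (log2 fold change 0.30, SE 0.109, unadjusted p = 0.0240, against the other F/F pair 0.16 with an unadjusted p above 0.05). Trdn, triadin, was at 263, 246, 14.8 and 7.92 FPKM in F/F mice and at 11.3, 13.4, 10.49 and 9.13 FPKM in ChMKO mice. The divergent pair alone was high, and the log2 fold change of -2.20 became 0.01 against the other F/F pair. Sln, the SERCA inhibitor sarcolipin, was at 0.672, 0.240, 1.44 and 2.82 FPKM in F/F mice and at 1.54, 0.529, 0.483 and 0.629 FPKM in ChMKO mice, with -0.26 against all F/F mice and -0.80 against the other F/F pair (unadjusted p = 0.0190). Of 11 tested myogenic genes (17 listed), 7 were higher and 4 lower, and against the other F/F pair 5 were higher and 6 lower. Cdh15, the cadherin of satellite cells and myoblasts, was at 4.27, 4.55, 4.33 and 4.05 FPKM in F/F mice and at 5.24, 4.52, 5.44 and 5.42 FPKM in ChMKO mice (log2 fold change 0.21, unadjusted p = 0.0257, against the other F/F pair 0.24, unadjusted p = 0.0320). Only mouse N_KO_374 lay inside the F/F range.

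Of 18 oxidative regulators 8 were higher and 10 lower (2 and 16 against the other F/F pair), and Ppargc1a, Ncor1 and Prkaa1 had an unadjusted p under 0.05, all lower (3 of 18, beside 11.1% of all genes tested). Against the other F/F pair, 0 of 18 had one. Ppargc1a, the coactivator PGC-1α, was at 7.29, 7.67, 5.39 and 5.85 FPKM in F/F mice and at 5.35, 4.97, 4.54 and 4.48 FPKM in ChMKO mice (log2 fold change -0.36, SE 0.116, unadjusted p = 0.0122). The groups did not overlap by a narrow margin, and the gap was small against the other F/F pair (-0.18, unadjusted p = 0.0830) and near 0 with the GC profile as a term (-0.03). Of 23 tested genes of atrophy and FoxO (24 listed), 15 were higher and 8 lower (13 and 10 against the other F/F pair) and 0 had an unadjusted p under 0.05. Relative to the other F/F pair Fkbp5, a glucocorticoid-induced chaperone partner, was higher by 0.70 (unadjusted p = 0.00458) and Mstn, encoding myostatin, by 0.35 (unadjusted p = 0.0135). Their values were 18.4, 8.70, 6.39 and 8.11 against 14.2, 14.7, 10.51 and 10.4 FPKM for Fkbp5 and 81.8, 71.8, 34.8 and 36.0 against 51.2, 45.4, 45.5 and 39.6 FPKM for Mstn. Mouse N_WTc397 exceeded every ChMKO mouse in both genes, as did mouse N_WTc401 for Mstn, and against all F/F mice the differences were 0.33 and -0.20.

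Among clock genes, Nfil3 was the 1 member past the study's criterion. Nfil3, a repressor whose level cycles through the day, was at 14.8, 7.83, 38.6 and 55.8 FPKM in F/F mice and at 57.7, 53.5, 58.4 and 57.9 FPKM in ChMKO mice (log2 fold change 1.29). Arntl, encoding the clock activator BMAL1, was at 1.57, 1.99, 5.54 and 4.24 FPKM in F/F mice and at 4.93, 5.63, 5.74 and 6.66 FPKM in ChMKO mice, and Nr1d2, a repressor of Arntl, at 45.1, 41.3, 19.9 and 15.4 and 15.0, 15.7, 15.8 and 15.1 FPKM. In the divergent pair Nfil3 and Arntl were at their lowest and Nr1d2 at its highest. Of 18 tested clock genes (20 listed) 6 were higher and 12 lower (11 and 8 of 19 tested against the other F/F pair), and Per3, Arntl, Nr1d2 and Nfil3 had an unadjusted p under 0.05 (4 of 18, beside 11.1% of all genes tested). Compared with the other F/F pair these 4 differed by -0.27, 0.20, -0.18 and 0.29, none with an unadjusted p under 0.05, while Bhlhe40 differed by -0.55 (unadjusted p = 0.0256). In the hypoxia, high-fructose and chow contrasts Nfil3 differed by 0.16, 0.68 and 0.84, with unadjusted limma p of 0.432, 0.00299 and 0.000293. Arntl differed by -0.08, 0.50 and 0.44 and Nr1d2 by -0.34, -0.29 and -0.37, of which Nr1d2 on the diet alone had an unadjusted limma p under 0.05. The hypoxia values of Nfil3, Arntl and Nr1d2 were -0.12, -0.20 and -0.05 without those 2 F/F mice.

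Stress lists gave few members past an unadjusted p of 0.05. Of 20 immediate early genes 12 were higher and 8 lower, none with an unadjusted p under 0.05, and all 20 were lower against the other F/F pair, where mouse N_WTc369 had a summed level of 896 FPKM beside 166 to 466 FPKM in the other mice. Of 15 chaperones 13 were higher (median 0.27, and 0.05 against the other F/F pair), and of 13 tested genes of the unfolded protein response (16 listed) 5 were higher, and 2 against the other F/F pair. Of 13 tested HIF pathway genes (15 listed) 9 were higher and 4 lower, and against the other F/F pair 4 were higher and 9 lower (medians 0.12 and -0.10). Among these Car9, carbonic anhydrase 9, was at 0.744, 0.252, 0.400 and 0.644 FPKM in F/F mice and at 1.05, 0.825, 0.628 and 0.870 FPKM in ChMKO mice (log2 fold change 0.29, unadjusted p = 0.0411), a low level with overlap. None of the 13, Car9 included, had an unadjusted p under 0.05 against the other F/F pair. Of 16 tested interferon response genes (22 listed) 8 were higher and 8 lower (7 and 9 against the other F/F pair). Of the 16, 4 had an unadjusted p under 0.05 (1 higher and 3 lower, beside 11.1% of all genes tested), and 0 had one against the other F/F pair. Stat2 and Ifit2 had lower values without overlap (as 4.95% of all genes did, in either direction), Stat2 at 1.12, 1.39, 0.987 and 1.36 against 0.826, 0.973, 0.761 and 0.921 FPKM and Ifit2 at 1.87, 1.62, 1.46 and 1.62 against 1.01, 1.36, 1.08 and 1.44 FPKM. Isg15, an interferon-induced ubiquitin-like protein, was at 0.708, 0.525, 0.770 and 1.82 FPKM in F/F mice and at 2.11, 1.26, 2.71 and 1.28 FPKM in ChMKO mice (log2 fold change 0.55, unadjusted p = 0.0389), so the list had no single direction. Against the other F/F pair Stat2, Ifit2 and Isg15 differed by -0.21, -0.20 and 0.31 (unadjusted p = 0.0749, 0.110 and 0.272).

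**Figure D3:**
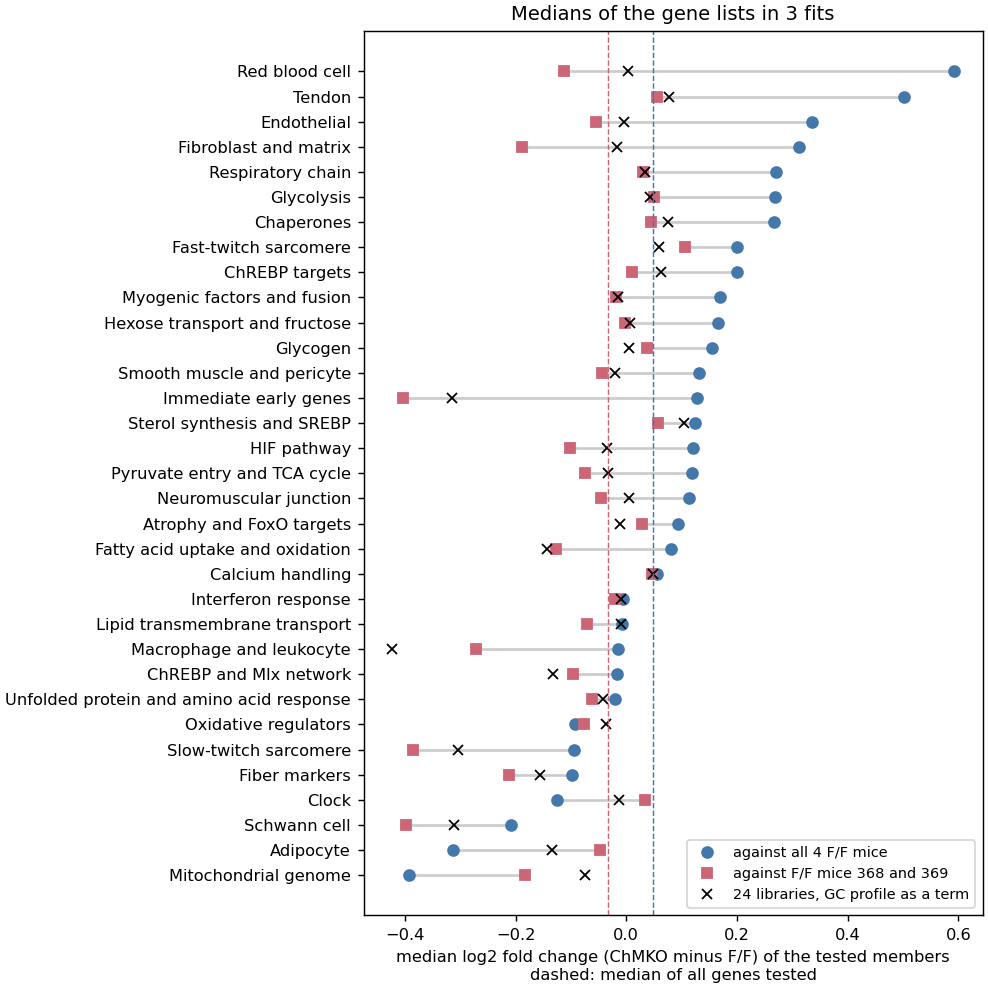
Median log2 fold change of the tested members of each gene list, in ChMKO mice against all 4 F/F mice (circles), against the other F/F pair (squares) and in 24 libraries with the GC profile as a term (crosses). Dashed lines mark the medians of all genes tested, 0.05 and -0.03. The respiratory chain moves from 0.27 to 0.03 and glycolysis from 0.27 to 0.05 between the first pair of fits.

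By the study's criterion (a log2 fold change beyond 1 in size, with an unadjusted p under 0.05) 66 genes differed, 0.609% of those tested, 28 higher and 38 lower. Of the 38 lower genes, 37 had their highest values in the divergent pair, which held for 18.5% of all genes, and Mlxipl was the other. Their transcripts were rich in A and T and long, with a median GC content of 41.1% and a median length of 7344 bases beside 49.8% and 4447 bases over all genes. The largest was Nexn, encoding the Z-disc protein nexilin, at 179.5, 205, 24.2 and 15.0 FPKM in F/F mice and at 11.7, 16.3, 16.1 and 13.6 FPKM in ChMKO mice. The other F/F pair lay close to the ChMKO mice, and the log2 fold change of -2.02 became -0.39 against them. After it came mt-Nd5, Ktn1, Pcm1, mt-Nd6, Tpr, Upf2, Ppig, Dek and Pnisr, at -1.62 to -1.29. Apart from the mitochondrial genes these encode proteins of the endoplasmic reticulum, centriolar satellites, nuclear pore, RNA decay, splicing and chromatin. Neb, the giant thin-filament ruler nebulin, was also among the 38, at 357, 367, 133 and 88.4 against 98.0, 95.6, 90.8 and 87.1 FPKM. Relative to the other F/F pair, 36 of the 38 were tested, with a median of -0.19, and 6, Mlxipl among them, had an unadjusted p under 0.05 (2.74% of all genes). The 38 were chosen on the same ChMKO mice and on F/F mice that include this pair, so nothing is read from these values.

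The 28 higher genes were mostly those of hepatocytes, led by Mup7, Alb, Mup3, Mup17, Serpina3k, Mup14, Apoa2, Serpina1e, Mup20 and Apoa1. Alb, serum albumin, was at 0.189, 0.0225, 68.5 and 0.346 FPKM in F/F mice and at 19.9, 15.2, 28.7 and 181 FPKM in ChMKO mice (log2 fold change 3.49, SE 1.38). Apoa1, the apolipoprotein of high-density lipoprotein, was listed at 0, 0, 8.50 and 0 FPKM in F/F mice and at 4.36, 3.08, 7.77 and 41.6 FPKM in ChMKO mice. Mouse N_KO_380 stood far above the rest, F/F mouse N_WTc368 passed the other ChMKO mice, and both mouse N_WTc369 and the divergent mice were at or near 0. Of 28 liver genes in a list written after these values were seen, 27 passed the minimum, and the choice of the list fixed their direction. Their summed level was 35.1, 21.5, 244 and 9.77 FPKM in F/F mice and 136, 93.4, 181 and 1145 FPKM in ChMKO mice. The part of these transcripts in the other results was not tested. Mup and Serpina1 genes are near-identical copies, and the values of single members are uncertain.

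Of the 28 higher genes, 3 were neither liver genes nor relatives of them: Actc1, Nfil3 and mt-Atp8. Actc1, the cardiac actin that embryonic and regenerating fibers also express, was at 84.3, 109.6, 101 and 171 FPKM in F/F mice and at 317, 326, 157 and 189 FPKM in ChMKO mice (log2 fold change 1.06, SE 0.289, unadjusted p = 0.00540). Mice N_KO_370 and N_KO_374 were highest, N_KO_375 lay below the F/F mouse N_WTc369, and against the other F/F pair the difference was 0.83 (unadjusted p = 0.0494). With the GC profile as a term it was 0.14 (unadjusted p = 0.845), but that term also rests on hypoxic F/F mice. Among those, Actc1 was at 185.5 and 92.8 FPKM in the mice of negative GC correlation and at 1796 and 864 FPKM in the others. In the other contrasts it differed by 1.60 in hypoxia (-0.02 without the 2 F/F mice of negative GC correlation there), -0.28 on the diet and 0.69 on chow, with an unadjusted limma p under 0.05 on chow alone. Reads of near-identical actin genes may be split between them.

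**Figure D4:**
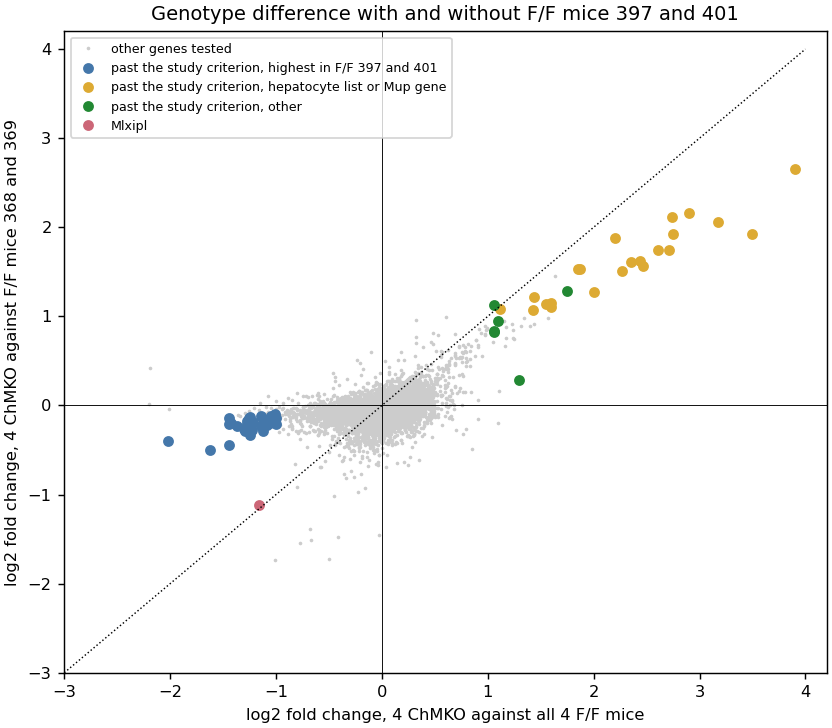
Log2 fold change of each gene against all 4 F/F mice (horizontal) and against the other F/F pair (vertical), with the dotted line marking equal values. Genes past the study's criterion that are highest in the divergent pair (blue) lie closer to 0 on the vertical axis but below it, with a median of -0.19 over the 36 lower genes tested in both. Mlxipl (red, -1.16 and -1.12) lies on the dotted line, and hepatocyte genes are in yellow.

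Compared with the other F/F pair alone, 10792 genes were tested, Mlxipl was again the 1 gene with an adjusted p under 0.05, and 296 had an unadjusted p under 0.05 (2.74%, 107 higher and 189 lower). Of the genes past the study's criterion in this fit (5, 0.0463%), Mlxipl and mt-Atp8 also passed it against all F/F mice. The other 3, S100a8, Il1b and Retnlg, are genes of neutrophils and were named after their values were seen. S100a8 was at 0.239, 0.0759, 1.33 and 15.9 FPKM in F/F mice and at 1.11, 1.46, 0.667 and 0.498 FPKM in ChMKO mice, and Il1b at 0, 0.0553, 0.284 and 7.50 and 0.173, 0.299, 0.0303 and 0.145 FPKM. In each, mouse N_WTc369 alone was high. The summed level of 14 neutrophil genes, listed after the values were seen, was 73.96 FPKM in mouse N_WTc369 and 1.76 to 7.47 FPKM in the other 7 mice. Against all F/F mice 1206 genes had an unadjusted p under 0.05 (11.1%, 504 higher and 702 lower), and 149 of these (75 higher and 74 lower) also had one against the other F/F pair. These fits share their ChMKO mice and the other F/F pair.

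The count of adjusted calls depended on how the F/F mice were weighed. With limma's array weights 5209 genes had an adjusted p under 0.05. That fit gave the other F/F pair weights of 0.284 and 0.160 and the other 6 mice 1.19 to 2.30, so it compared ChMKO mice mainly with the divergent pair. Against the divergent pair alone the count was 4865. Without mouse N_WTc369 it was 4 (Amy1, Mgp, Mlxipl and Ptx4), and without mouse N_WTc368, N_KO_370, N_KO_374, N_KO_375 or N_KO_380 it was 0, with 462 to 1764 genes at an unadjusted p under 0.05.

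Markers of other cell types were counted in both fits. Against all F/F mice, 10 of 11 endothelial, 10 of 11 fibroblast and matrix, 6 of 7 tendon and 5 of 5 red blood cell genes were higher, with medians of 0.34, 0.31, 0.50 and 0.59. Against the other F/F pair, 3, 2, 5 and 2 of them were higher, with medians of -0.06, -0.19, 0.06 and -0.11. Cldn5, a tight junction protein of endothelium, was at 2.50, 3.13, 6.16 and 6.72 FPKM in F/F mice and at 5.71, 6.49, 8.58 and 10.3 FPKM in ChMKO mice, and Col1a1, type 1 collagen, at 21.9, 27.2, 42.5 and 115 and 153, 47.7, 57.6 and 58.7 FPKM. In both, the divergent pair was lowest. The summed fibroblast and matrix level was 257 to 623 FPKM in F/F mice and 353 to 720.0 FPKM in ChMKO mice, and that of red blood cell genes 103 to 387 and 217 to 407 FPKM, in a family of near-identical globin copies. Adipocyte genes were lower in 7 of 8, and in 6 of 8 against the other F/F pair (medians -0.31 and -0.05). Adipoq, adiponectin, was at 10.3, 8.62, 11.6 and 1.27 FPKM in F/F mice and at 8.32, 2.29, 6.66 and 2.201 FPKM in ChMKO mice. Leukocyte genes were lower in 7 of 12, and in 12 of 12 against the other F/F pair, where mouse N_WTc369 summed to 320 FPKM beside 83.2 to 188 FPKM in the others. Schwann cell genes were lower in 6 of 7 in both fits (medians -0.21 and -0.40), with sums of 58.4 to 177 FPKM in F/F mice and 45.5 to 188 FPKM in ChMKO mice. Smooth muscle genes were higher in 5 of 6 and neuromuscular junction genes in 8 of 11 (12 listed), and against the other F/F pair in 1 of 6 and 3 of 11 (medians -0.04 and -0.05). Of these Rapsn, rapsyn of the acetylcholine receptor cluster, did not overlap, at 7.65, 7.08, 7.97 and 7.94 against 10.98, 8.09, 9.37 and 9.47 FPKM (log2 fold change 0.27, 0.22 against the other F/F pair). The part of these cells in the results above was not tested.

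**Figure D5:**
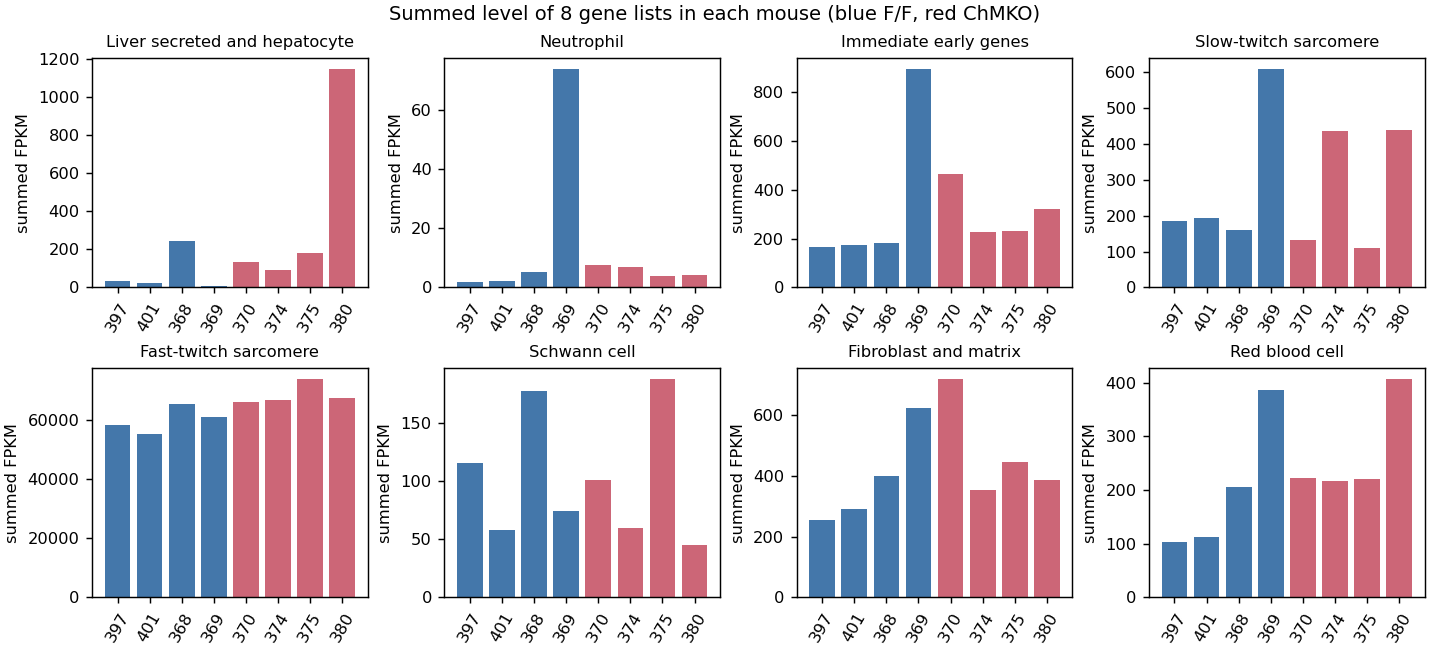
Summed FPKM of 8 gene lists in each normoxic mouse, F/F in blue and ChMKO in red. Liver genes peak in mouse N_KO_380 (1145 FPKM), neutrophil (73.96 FPKM) and immediate early genes (896 FPKM) in F/F mouse N_WTc369, and slow-twitch genes in N_WTc369, N_KO_374 and N_KO_380, while fast-twitch sums reach 65201 FPKM at most in F/F mice and 66008 FPKM at least in ChMKO mice.

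The genotype difference was set beside that in mice of the hypoxia, high-fructose and chow gastrocnemius groups, which are other libraries. In hypoxia, 2 of the 4 F/F mice had the GC correlation of the divergent pair (-0.50 and -0.49), and the other 6 mice did not, so the F/F groups of both contrasts are split alike. Of 9481 genes tested in all 4 contrasts, 1042 had an unadjusted limma p under 0.05 in normoxia. Of these, 850 had one in the same direction in no other contrast, 173 in 1 more, 16 in 2 more and 3 in all 4. In hypoxia itself 94 of the 1042 had one in the same direction, where 5.27% of all genes had one in either direction, as 7.36% did on the diet and 4.63% on chow. Without those 2 hypoxic F/F mice 9365 genes were tested in all 4 contrasts, 1003 had an unadjusted limma p under 0.05 in normoxia, and 7 of these had one in the same direction in hypoxia, where 0.818% of all genes then had one in either direction. Of the 1003, 888 then had one in no other contrast, 106 in 1 more, 8 in 2 more, and Mlxipl alone in all 4. With normoxia taken against the other F/F pair the genes numbered 250, of which 200 had one in no other contrast, 44 in 1 more, 3 in 2 more and 3, the same genes as with all libraries, in all 4, and 11 had one in hypoxia. With both pairs left out, 249 genes gave 205, 37, 6 and 1, and 4 had one in hypoxia. With all libraries the 3 were Mlxipl, Dysf and Rgcc, of which the last pair was named after the values were seen. Dysf, encoding dysferlin, which reseals the fiber membrane and whose loss causes muscular dystrophy, was at 7.40, 8.03, 9.42 and 10.1 FPKM in F/F mice and at 9.79, 14.5, 15.1 and 14.8 FPKM in ChMKO mice. All ChMKO mice but N_KO_370 lay well above the F/F mice, and mouse N_KO_370 lay below mouse N_WTc369. The log2 fold change was 0.57 (SE 0.151, unadjusted p = 0.00451, 0.42 against the other F/F pair). In hypoxia it was 0.48, and 0.41 without the 2 hypoxic F/F mice of negative GC correlation (unadjusted p = 0.113), on the diet 0.38 (limma adjusted p = 0.0343) and on chow 0.50 (limma adjusted p = 0.0536). In percent of the F/F mean, ChMKO mice had 155% in normoxia, 147% in hypoxia, 134% on the diet and 146% on chow.

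Rgcc, a regulator of the cell cycle also induced by complement, was at 24.8, 24.1, 29.0 and 40.1 FPKM in F/F mice and at 43.8, 49.4, 42.9 and 53.5 FPKM in ChMKO mice without overlap (log2 fold change 0.69, SE 0.161, unadjusted p = 0.00210). Mouse N_WTc369 came nearest to the ChMKO mice, and against the other F/F pair the difference was 0.46 (unadjusted p = 0.0171). It was 0.47 in hypoxia (0.29 without the same 2 F/F mice, with an unadjusted p above 0.05), 0.31 on the diet and 0.81 on chow. Slc15a5, a member of the peptide transporter family that was also named after its values were seen, was at 4.60, 5.19, 5.23 and 6.56 FPKM in F/F mice and at 1.92, 2.89, 2.06 and 4.01 FPKM in ChMKO mice without overlap. The divergent pair lay close to mouse N_WTc368, and the log2 fold change was -0.81 (SE 0.177, unadjusted p = 0.00142) against all F/F mice and -0.92 (unadjusted p = 0.00448) against the other F/F pair. In hypoxia it was -0.57 (-0.63 without the same 2 F/F mice), on the diet -0.86 and on chow -0.48, where the unadjusted limma p was 0.0806. Neither gene had an adjusted p under 0.05 in any of the 4 contrasts.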

How the data were processed

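TRIzol RNA was sequenced by a service company (NovaSeq), and reads were cleaned with fastp 0.18.0 ahead of HISAT2 alignment. The submitters' processing notes also name Bowtie2 2.2.8, StringTie 1.3.1, RSEM and the build GRCm39. The deposited values are FPKM per gene, over all exons. Scaled back by gene length they gave whole reads (within 0.01) for 99.9% of values in each library, used for voom and the read totals alone. Of 21959 entries, 51 without a symbol and 23 repeated symbols were left out.

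In R 4.3.3, limma 3.58.1 was run on log2(FPKM + 1) for genes averaging 0.5 FPKM or more (lmFit, eBayes with trend, two-sided, Benjamini-Hochberg over all genes tested). It was also run on simulated data drawn from the ChMKO mice alone. Those data held no divergent pair, so the run cannot show how that pair affects the fit. Alternatives were a pseudocount of 0.1, a minimum of 5 FPKM or none, rescaling by median ratios, voom, array weights, a robust fit, 24 libraries together, and fits without single mice or without the divergent pair. The hypoxia contrast was also run without 2 F/F mice of like GC profile, an alternative added after seeing the data. Fits left with 2 F/F mice rest on the spread pooled over groups. Interactions were contrasts over 24 libraries.

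Members and lists were chosen with earlier results of these data known. Named were the network genes, Txnip and Arrdc4, the 10 largest changes each way past the criterion, genes that pass it in both fits, the fiber markers and, per list, up to 4 genes of lowest p. Proliferation genes stayed under the minimum. Xist, nuclear-retained RNAs and noncoding RNAs linked to Mck-cre were not analysed here. A few genes of the lists are not reported here.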

Additional observations from a re-analysis of the deposited data

Results flagged for a closer look

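Mice far from the other 3 of their group, by the gap to the nearest mouse as a share of the group's range (Dixon's test at its 95% limit), were found for 40 of 312 combinations of a named gene and a group. Chance flags about 1 in 20 independent groups, but these genes were named in part for large differences, those of liver vary together and some are near-identical copies, so that rate is no measure for this count. In ChMKO mouse N_KO_380 these were Mlx (4.49 FPKM, others 5.47 to 5.61), Mup7 (217 FPKM, others 14.2 to 22.6), Alb (181 FPKM, others 15.2 to 28.7), Mup3 (106 FPKM, others 7.36 to 16.5), Mup17 (97.0 FPKM, others 4.03 to 7.65), Serpina3k (65.7 FPKM, others 4.89 to 7.79), Mup14 (63.2 FPKM, others 3.81 to 5.15), Apoa2 (77.2 FPKM, others 3.68 to 13.6), Serpina1e (52.2 FPKM, others 4.12 to 10.1), Mup20 (48.7 FPKM, others 2.60 to 8.60), Apoa1 (41.6 FPKM, others 3.08 to 7.77), mt-Nd6 (1139 FPKM, others 862 to 897), Atp5o (5.57 FPKM, others 3.87 to 4.02), Ncam1 (0.590 FPKM, others 0.732 to 0.755), Hbb-bs (233 FPKM, others 121 to 133), Hbb-bt (39.8 FPKM, others 15.6 to 18.8) and Scx (1.51 FPKM, others 2.15 to 2.19). In F/F mouse N_WTc368 these were Mup7 (25.9 FPKM, others 0 to 0.196), Alb (68.5 FPKM, others 0.0225 to 0.346), Mup3 (21.0 FPKM, others 0 to 0), Mup17 (6.78 FPKM, others 0 to 0), Serpina3k (8.66 FPKM, others 0 to 0.0328), Mup14 (4.59 FPKM, others 0 to 0), Apoa2 (10.7 FPKM, others 0 to 0.377), Serpina1e (9.88 FPKM, others 0 to 0.0835), Mup20 (11.2 FPKM, others 0 to 0), Apoa1 (8.50 FPKM, others 0 to 0) and Thrsp (7.23 FPKM, others 5.13 to 5.40). In F/F mouse N_WTc369 these were Myh2 (479 FPKM, others 220.0 to 238), Atp2a2 (68.8 FPKM, others 21.1 to 29.0), Hspe1 (38.3 FPKM, others 28.7 to 29.7) and C1qc (11.4 FPKM, others 4.21 to 4.80). In ChMKO mouse N_KO_375 these were Pgk1 (569 FPKM, others 659 to 663), Pvalb (10146 FPKM, others 8369 to 8608) and Sqstm1 (228 FPKM, others 194 to 197). In ChMKO mouse N_KO_374 this was Nfil3 (53.5 FPKM, others 57.7 to 58.4). In ChMKO mouse N_KO_370 these were Nr4a2 (6.66 FPKM, others 1.34 to 1.75), Col1a2 (111 FPKM, others 42.7 to 51.5) and Col1a1 (153 FPKM, others 47.7 to 58.7). In F/F mouse N_WTc397 this was Dnajb9 (27.8 FPKM, others 23.7 to 24.3). Of the 40, 17 were in mouse N_KO_380, 11 in mouse N_WTc368 and 4 in mouse N_WTc369, and genes of liver made up most of those in N_KO_380 and N_WTc368. No genotype difference was found to differ between normoxia and hypoxia or diet after adjustment.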

How the results depend on the processing

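No paired analysis was possible because Norm F/F and Norm ChMKO mice share no numbers. The fit with the GC profile was chosen after seeing the data. Genes with an adjusted p under 0.05 numbered 1 in most settings, 5209 with array weights, 4865 against the divergent pair alone and 0 to 4 when single mice were left out. Genes past the study's criterion (66) became 209 with a pseudocount of 0.1, 33 with a minimum of 5 FPKM, 120 with voom, 392 with array weights, 102 in 1 fit of 24 libraries, 492 against the divergent pair alone, 5 without the divergent pair (4 with rescaling, 12 with voom), and 9 to 194 without single mice. Genes with an unadjusted p under 0.05 (1206) became 505 with a minimum of 5 FPKM, 6099 with array weights, 1830 in 1 fit of 24 libraries, 5840 against the divergent pair alone, 296 without the divergent pair (298 with rescaling, 304 with voom), 455 with the GC profile, and 344 to 3600 without single mice. Of these, 41.8% were higher in ChMKO mice, 25.3% after rescaling, 57.8% with voom, 62.8% with the minimum of 5 FPKM and 64.8% with array weights, and rescaling moved the median of all genes from 0.05 to -0.03. The log2 fold change of Mlxipl was -1.09 to -1.20 without single mice, with an adjusted p of 0.0121 to 0.0693. Lists with a median above 0 numbered 21 of 34, and 11 without the divergent pair, 12 with rescaling as well and 12 with the GC profile. No interaction was called in any setting. Among 158 named genes no called value turned direction. Past the study's criterion or the adjusted threshold, 22 genes dropped below it in some setting (174 cases in all), and 105 others gained an adjusted p under 0.05 (205 cases). More than 4 adjusted calls were made only with array weights and against the divergent pair alone, fits that compare ChMKO mice mainly with that pair. The cause of the other shifts was not tested. Recovered reads of 14473169 to 18981598 per library limit genes near 0.5 FPKM.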
